A study of Mus musculus with 6 samples.

Results

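The proteasome genes described here are those whose annotated symbol starts with Psma, Psmb, Psmc, Psmd, Psme, Psmf or Psmg and that had a probe detected, at a detection p under 0.05, on at least 3 of 6 arrays. Of 49 such genes on the array, 43 met that condition, out of 9370 named genes tested in all. Expression was measured on Illumina bead arrays in MR-positive and in MR-negative dendritic cells of the mouse, 3 arrays each, where MR is the mannose receptor, an endocytic lectin that takes up glycoproteins. Both populations came from bone marrow cells cultured for 1 week with GM-CSF, both were given Alexa647-labeled OVA (fluorescent ovalbumin), and they were parted in a flow cytometric sort by its uptake, after which they were lysed at once. MR-positive here therefore stands for uptake of the label by a cell of such a culture. The sources used here give no strain or age. Each population has arrays M1, M2 and M3, numbered so in their titles. Whether a number stands for an animal, a culture or a repeat is not in the labels, and the p-values therefore reflect the spread among these arrays alone, some or all of which may be technical.

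The proteasome is the main protease of the cytosol and nucleus. Its barrel-shaped core, the 20S particle, is built of alpha and beta rings, and some of the beta subunits carry the active sites. In cells of the immune system, and in others under interferon gamma, newly built cores can take up immunosubunits in place of the constitutive catalytic subunits, each immunosubunit in place of a particular partner. The core is opened by the 19S cap, which binds ubiquitin-tagged proteins, or by activators such as PA28. Peptides that it releases feed MHC class I molecules, and in dendritic cells a cytosolic route of cross-presentation sends endocytosed antigen through it. The study's title concerns cross-presentation and cross-priming.

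Among the proteasome genes, 2 of the 3 measured immunosubunit genes and 1 PA28 gene were lower in MR-positive cells, while the constitutive partner of the first of these immunosubunits was higher. Psmb9 was 1.59-fold lower, Psme1 1.48-fold lower and Psmb8 1.37-fold lower, and Psmb6, the gene of the subunit that Psmb9 replaces, was 1.43-fold higher. Psmg1, which encodes a chaperone of 20S assembly, was 1.39-fold lower. The other 38 members did not pass the threshold. Each difference is the MR-positive mean minus the MR-negative mean of background-corrected, quantile-normalized log2 intensity, given with the standard error of the fit, and a gene passed at an adjusted p under 0.05 by limma with Benjamini-Hochberg adjustment. The 5 members that passed are 11.6% of the 43, against 15.3% of all genes and 13.8% of all probes tested. By direction, 4 members were lower (9.30%, against 7.13% of all genes) and 1 was higher (2.33%, against 8.19%). The number of genes called is thus not above that of genes at large, and what follows describes which members were called and how large their differences were. At an unadjusted p under 0.05 there were 7 lower and 5 higher members, where 13.2% of all genes were lower and 16.1% higher (29.3% in all). In bulk samples such as these, fewer cells of a type and less RNA per cell cannot be told apart.

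**Figure D1:**
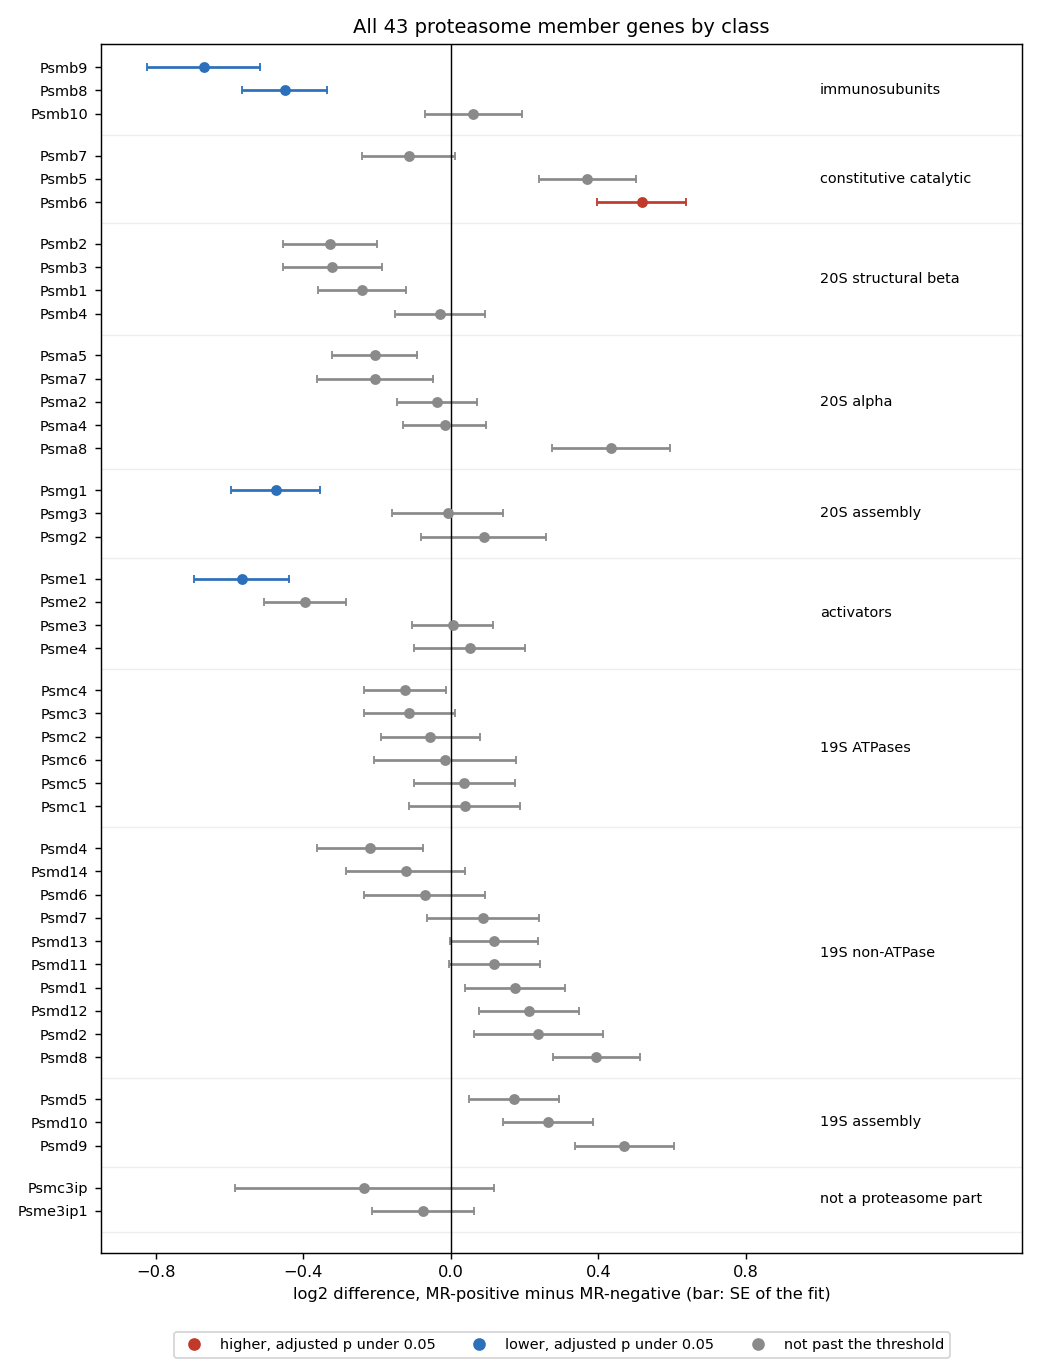
Each point is the log2 difference, MR-positive minus MR-negative, of 1 of the 43 member genes (horizontal axis), with the standard error of the fit as a bar, and genes are grouped by their part in the proteasome. Psmb9, Psmb8, Psme1 and Psmg1 stand on the lower side (blue), Psmb6 on the higher side (red), and the 38 grey genes did not pass the threshold.

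Markers of cell types and states moved with the populations, and their part in the differences of proteasome genes was not tested. Of 7 markers of mature dendritic cells, 6 were lower in MR-positive cells and 0 higher, among them Il4i1 (-3.99 ± 0.19), Fscn1 (-3.74 ± 0.22, detected on 2 of 3 MR-positive arrays), Ccr7 (-3.23 ± 0.28) and Cd40 (-1.25 ± 0.26). Their summed level, on the linear scale of normalized intensity, was 1700 to 2484 in MR-positive arrays and 5940 to 9937 in MR-negative arrays. Of the T cell list, 2 of 10 genes were measured, Cd3g (-5.98 ± 0.30) and Cd3d (at least 13.7-fold lower, a bound set by the lowest detected signal, since no MR-positive array detected it). They summed to 47.5 to 68.0 in MR-positive arrays and 1638 to 3558 in MR-negative arrays, while Cd4, Cd8a and Cd247 were detected on 0 of 6 arrays. By its best probe Zap70 was detected on 2 arrays and Cd3e on 1, all MR-negative, too few for a test. Of the NK cell list, 3 of 8 were measured and 2 were lower, Klrd1 (-4.53 ± 0.56, detected on 2 of 3 MR-positive arrays) and Klrk1 (at least 2.80-fold). The sums were 104 to 154 in MR-positive and 433 to 1576 in MR-negative arrays, and Ncr1, Klrb1c, Nkg7 and Gzmb were detected on 0 arrays. Of the B cell list, 2 of 6 were measured and Blk was lower (at least 2.73-fold, with Cd79b at -0.04 ± 0.21), at sums of 40.5 to 56.0 in MR-positive and 57.3 to 143 in MR-negative arrays, with Ms4a1 and Pax5 detected on 0 arrays. Of 7 measured neutrophil markers 0 passed by limma and 5 were lower at an unadjusted p under 0.05, with Elane at -0.80 ± 0.23 and Ngp at -0.69 ± 0.21. Their sums were 3188 to 5544 in MR-positive and 5226 to 17393 in MR-negative arrays, highest in M1. Dendritic cell markers were present, with 7 of 8 measured (6 lower, among them Dpp4 by at least 10.47-fold and Zbtb46 by at least 3.04-fold, which no MR-positive array detected, H2-Eb1 at -1.66 ± 0.21 and H2-Ab1 at -1.19 ± 0.22, and Itgax higher at 1.22 ± 0.19), sums of 20894 to 27798 in MR-positive and 42716 to 52141 in MR-negative arrays, and Flt3 detected on 0 arrays. Of 7 measured macrophage markers 2 were higher, Mertk (2.10 ± 0.28) and Mrc1, the mannose receptor gene itself (2.64 ± 0.39), and 5 did not pass by limma. Of these, Cd14 (0.66 ± 0.18, adjusted p = 0.0530) and Itgam (0.59 ± 0.18, adjusted p = 0.0748) lay above 0 without overlap. Fcgr1 (-0.63 ± 0.30), Adgre1 (-0.18 ± 0.14) and Csf1r (-0.08 ± 0.16) lay below 0. The sums were 12261 to 14852 in MR-positive and 7527 to 8626 in MR-negative arrays, and without Mrc1 they were 8313 to 9753 in MR-positive and 6412 to 8197 in MR-negative arrays.

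The 3 immunosubunit genes were taken first. Psmb9 encodes the immunosubunit that replaces the Psmb6 product. Its normalized log2 intensity was 9.63, 9.48 and 9.37 in the MR-positive arrays of M1, M2 and M3, against 10.42, 10.04 and 10.03 in the MR-negative arrays. The lowest MR-negative array lay above the highest MR-positive one, and M1 had the highest value in each population. The difference was -0.67 ± 0.15 (adjusted p = 0.0276). Psmb8, whose product replaces that of Psmb5, had 10.68, 10.67 and 10.81 in MR-positive cells, against 11.24, 11.10 and 11.17 in MR-negative cells. Here too the populations did not overlap, and the difference was -0.45 ± 0.11 (adjusted p = 0.0400). For a dimmer Psmb8 probe the difference was -0.36 ± 0.13 without overlap, which did not pass (adjusted p = 0.115). Psmb10, whose product replaces that of Psmb7, had 9.53, 9.76 and 9.71 in MR-positive cells, against 9.44, 9.68 and 9.70 in MR-negative cells. Its populations overlapped almost wholly, and the difference of 0.06 ± 0.13 did not pass (adjusted p = 0.828), nor did that of its dimmer probe (0.19 ± 0.14, adjusted p = 0.458).

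The constitutive partners stood the other way for the first pair. Psmb6 had 12.29, 12.37 and 12.45 in MR-positive cells, against 11.86, 11.75 and 11.96 in MR-negative cells. All MR-positive arrays lay above all MR-negative ones, with a difference of 0.52 ± 0.12 (adjusted p = 0.0296), and its other probe differed by 0.47 ± 0.12 and also passed (adjusted p = 0.0377). Psmb5 had 8.96, 9.19 and 9.04 in MR-positive cells, against 8.76, 8.79 and 8.53 in MR-negative cells. These values did not overlap either, but the difference of 0.37 ± 0.13 did not pass (adjusted p = 0.115). It passed with the title number as a block (adjusted p = 0.0449). Psmb7 had 10.63, 10.90 and 10.62 in MR-positive cells, against 10.83, 10.85 and 10.81 in MR-negative cells. Its M2 arrays were close to each other while M1 and M3 were lower in MR-positive cells, and the difference of -0.12 ± 0.13 did not pass (adjusted p = 0.630). The other Psmb7 probes differed by -0.03 to 0.06, none past the threshold.

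Within each title number, the change of an immunosubunit gene can be set against that of the gene it replaces. For Psmb9 and Psmb6 the change of the first minus that of the second was -1.22 in M1, -1.19 in M2 and -1.16 in M3. For Psmb8 and Psmb5 it was -0.76, -0.83 and -0.88. For Psmb10 and Psmb7 it was 0.30, 0.03 and 0.20. The balance of immunosubunit to constitutive gene was thus lower in MR-positive cells in all 3 numbers for the first pair, by 2.28-fold on average, and for the second, by 1.77-fold, and not lower in any for the third. The values are a description, since the pairs were looked at with their differences known, and they say nothing of the protein content of the particles. Over 15 other ways of processing or sets of arrays they ran from -1.31 to -1.06 for Psmb9 and Psmb6, from -0.91 to -0.73 for Psmb8 and Psmb5, and from 0.09 to 0.23 for Psmb10 and Psmb7.

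**Figure D2:**
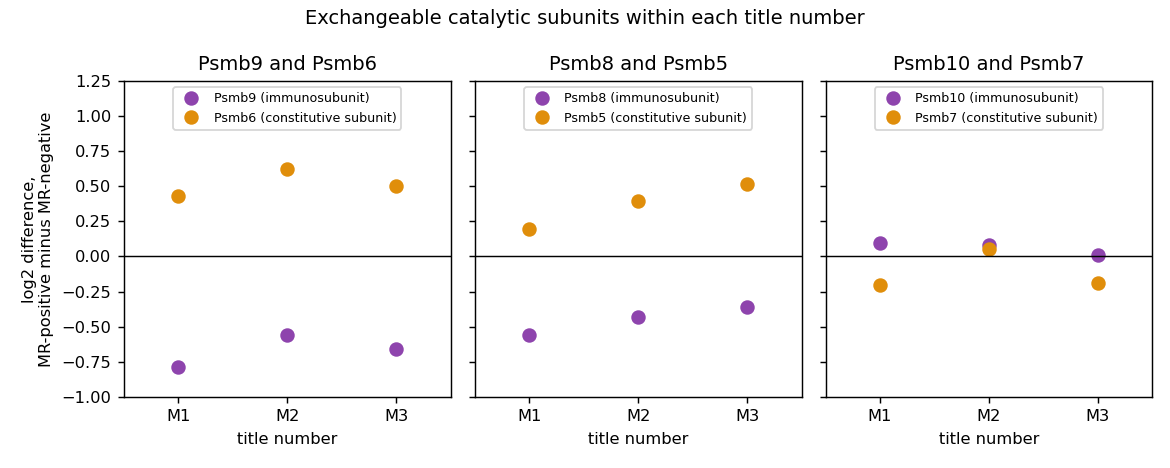
The log2 difference, MR-positive minus MR-negative (vertical axis), within M1, M2 and M3 is shown for each immunosubunit gene (purple) and for the constitutive gene whose product it replaces (orange). Psmb9 and Psmb8 lie below 0 and Psmb6 and Psmb5 above 0 in every number, while Psmb10 and Psmb7 lie between -0.20 and 0.09.

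Psmb11, the thymoproteasome gene of cortical thymic epithelium, was not a member, since its probe was detected on 2 arrays only.

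Of the activators, Psme1 and Psme2 encode the alpha and beta chains of the interferon-inducible PA28 ring, which opens the core without ubiquitin. Psme1 had 9.78, 9.93 and 9.61 in MR-positive cells, against 10.35, 10.39 and 10.28 in MR-negative cells. The populations did not overlap, and the difference was -0.57 ± 0.13 (adjusted p = 0.0267). Of the other Psme1 probe the difference was -0.36 ± 0.12, which missed the threshold (adjusted p = 0.0870). Psme2 had 8.52, 8.63 and 8.65 in MR-positive cells, against 8.96, 9.05 and 8.98 in MR-negative cells. Its populations did not overlap either, but the difference of -0.40 ± 0.11 missed the threshold (adjusted p = 0.0579), which it passed with the title number as a block (adjusted p = 0.0252). Psme2b, a close copy of Psme2, is annotated in the mouse, and signal from the 2 genes cannot be told apart here. Psme3, the nuclear PA28 gamma, which interferon does not induce, had 8.45, 8.48 and 8.37 in MR-positive cells, against 8.40, 8.43 and 8.46 in MR-negative cells. Its values overlapped, with a difference of 0.005 ± 0.109 (adjusted p = 0.985), and its sign turned with the scaling (-0.13 with equal medians). Psme4, which encodes the large activator PA200, differed by 0.05 ± 0.15 (adjusted p = 0.877) and turned likewise (-0.07).

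**Figure D3:**
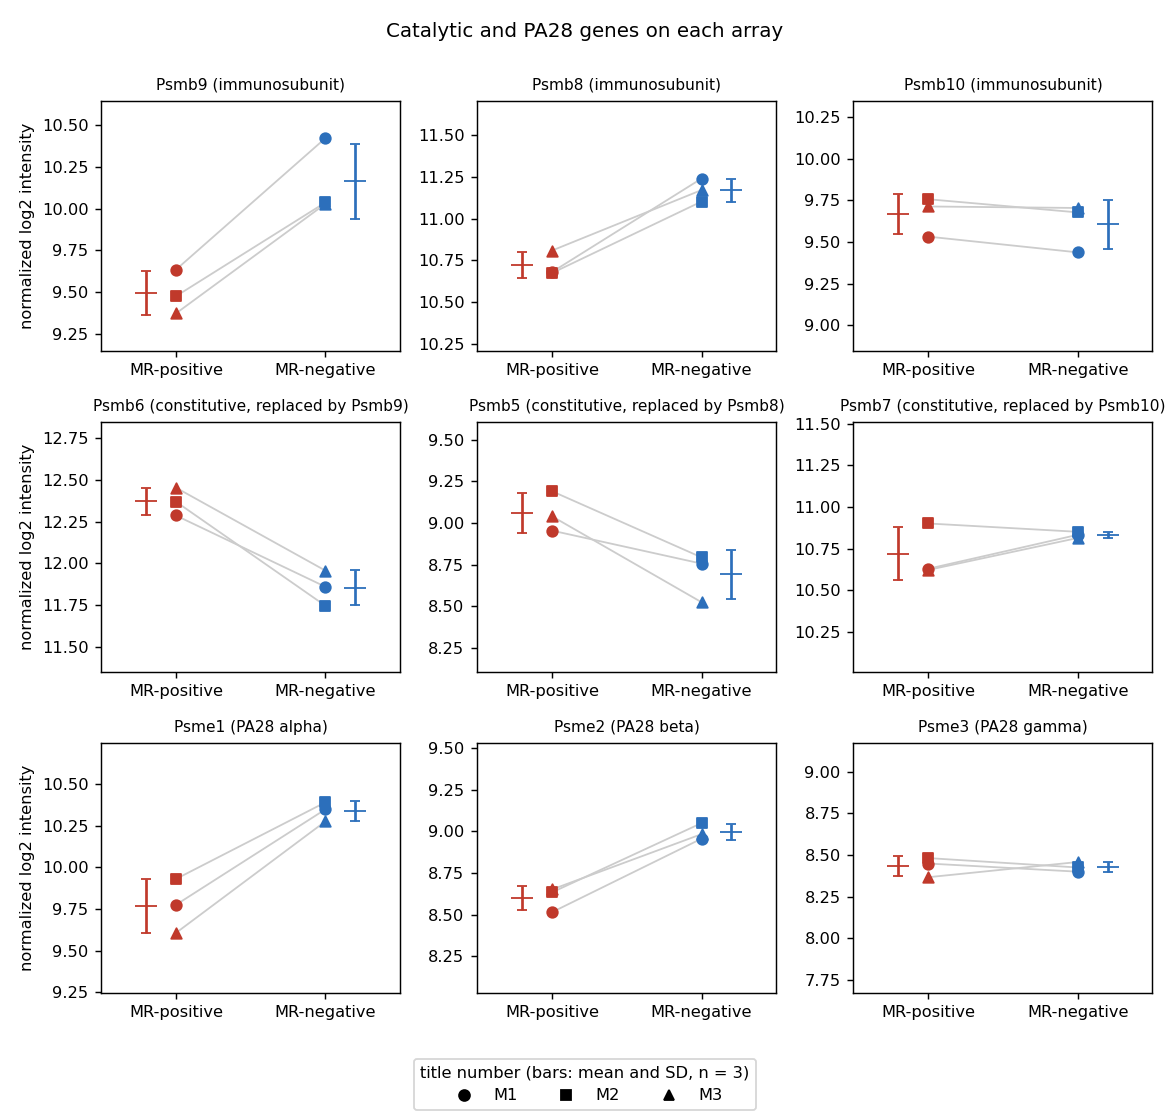
Normalized log2 intensity (vertical axis) of the catalytic and PA28 genes is shown on each array, MR-positive in red and MR-negative in blue, with marker shapes for M1 to M3, grey lines between arrays of a number, and the mean and SD of 3 arrays beside them. The populations do not overlap for Psmb9, Psmb8, Psmb6, Psmb5, Psme1 and Psme2 and overlap for Psmb10, Psmb7 and Psme3. Of all genes tested, 34.6% had populations that did not overlap. All panels span the same range of log2 units.

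The calls of Psmb9, Psme1, Psmb8 and Psmb6 were not all kept when single arrays were left out, which leaves fewer arrays in the fit. Psmb9 no longer passed without the MR-positive array of M2 (adjusted p = 0.0955) or M3 (0.107), or the MR-negative array of M2 (0.0566) or M3 (0.0665). Psme1 no longer passed without the MR-positive array of M1 (0.0592) or M3 (0.0993), or the MR-negative array of M2 (0.0897) or M3 (0.0820). Psmb8 did not pass once any single array was left out (0.0748 to 0.138). For Psmb6 the p was 0.0982 and 0.110 without the MR-positive arrays of M2 and M3, 0.1003 and 0.0727 without the MR-negative ones, and 0.103 with arrays scaled to equal medians only. The direction of these 4 genes was the same in each of these settings. Over the 15 other ways of processing or sets of arrays, Psmb9 ran from -0.78 to -0.54 and Psme1 from -0.67 to -0.46. Psmb8 ran from -0.54 to -0.40 and Psmb6 from 0.37 to 0.57.

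Promoter windows are shown for Psmb9, Psmb8, Psmb6 and Psmb5, which led the pairs, and for Psme1. Immunosubunit and PA28 genes are known targets of interferon-activated factors. NRF1 (Nfe2l1), a transcription factor that raises proteasome genes when proteolysis falls short, acts through antioxidant response elements. The windows are RefSeq sequence of GRCm38.p6, from 250 bases before to 50 bases after the annotated start, on the strand of the gene. Capitals mark matches to an ISRE core (GAAA, 2 bases of any kind, GAAA), from the interferon-stimulated response element, to a GAS site (TTCNNNGAA), bound by STAT factors, to an antioxidant response element core (TGACNNNGC) or to a CCAAT box (CCAAT), searched on both strands. The windows lie at chr17:34187281-34187580 (minus strand) for Psmb9, chr17:34197945-34198244 (plus strand) for Psmb8, chr14:55578244-55578543 (plus strand) for Psme1, chr11:70525107-70525406 (plus strand) for Psmb6 and chr14:54617946-54618245 (minus strand) for Psmb5.
Psmb9: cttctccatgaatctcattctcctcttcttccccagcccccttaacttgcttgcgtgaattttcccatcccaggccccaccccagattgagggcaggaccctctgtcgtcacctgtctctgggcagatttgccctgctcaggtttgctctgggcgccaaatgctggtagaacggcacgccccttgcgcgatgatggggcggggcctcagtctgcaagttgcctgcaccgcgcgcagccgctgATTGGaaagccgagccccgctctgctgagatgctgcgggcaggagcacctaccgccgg
Psmb8: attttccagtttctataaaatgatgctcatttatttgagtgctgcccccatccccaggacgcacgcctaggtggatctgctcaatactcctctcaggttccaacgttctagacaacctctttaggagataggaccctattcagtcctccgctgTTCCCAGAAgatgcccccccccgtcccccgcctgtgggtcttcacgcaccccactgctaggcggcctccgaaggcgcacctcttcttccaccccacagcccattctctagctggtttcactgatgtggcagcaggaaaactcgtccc
Psme1: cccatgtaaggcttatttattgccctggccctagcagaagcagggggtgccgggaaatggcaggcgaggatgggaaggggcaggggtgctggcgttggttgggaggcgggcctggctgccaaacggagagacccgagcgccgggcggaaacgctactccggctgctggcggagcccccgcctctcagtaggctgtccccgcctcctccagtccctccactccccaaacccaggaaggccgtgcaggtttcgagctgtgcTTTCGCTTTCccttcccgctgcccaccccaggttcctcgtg
Psmb6: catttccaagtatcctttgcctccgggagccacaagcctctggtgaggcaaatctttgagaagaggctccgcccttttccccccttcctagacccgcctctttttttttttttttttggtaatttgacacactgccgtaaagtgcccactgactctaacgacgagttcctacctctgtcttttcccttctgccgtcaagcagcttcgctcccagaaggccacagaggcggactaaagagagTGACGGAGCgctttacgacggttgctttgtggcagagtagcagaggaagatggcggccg
Psmb5: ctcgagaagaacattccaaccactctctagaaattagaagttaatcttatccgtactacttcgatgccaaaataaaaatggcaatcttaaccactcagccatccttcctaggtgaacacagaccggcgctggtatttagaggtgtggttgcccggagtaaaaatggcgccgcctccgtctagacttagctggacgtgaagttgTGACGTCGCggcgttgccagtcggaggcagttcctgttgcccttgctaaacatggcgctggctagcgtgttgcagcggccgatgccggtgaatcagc

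With the base at the start counted as 0, Psme1 held an ISRE core at 9 to 18 and Psmb8 a GAS match at -97 to -89. The matches in Psmb6, at -9 to -1, and in Psmb5, at -47 to -39, were antioxidant response element cores, and Psmb9 held only a CCAAT box, at -8 to -4. The windows of the immunosubunit gene Psmb10 and of the PA28 gene Psme2, which are not shown, held no match to any of these motifs. Of 36 member genes with a window, 4 held an ISRE core (Psmb3, Psmd4, Psmd9 and Psme1), 3 a GAS match (Psmb8, Psmd2 and Psmg1) and 6 an antioxidant response element core (Psmb5, Psmb6, Psmc6, Psmd9, Psmd12 and Psme4). A CCAAT box was held by 12. These 36 genes have 39 windows, and counted by window the numbers were also 4, 3, 6 and 12. Of all 32851 windows of this length, 3.44% held an ISRE core, 8.30% a GAS match, 12.4% an antioxidant response element core and 37.4% a CCAAT box. A match is a description of the letters and not of binding, and a longer or more distant element would not be seen in these windows.

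**Figure D4:**
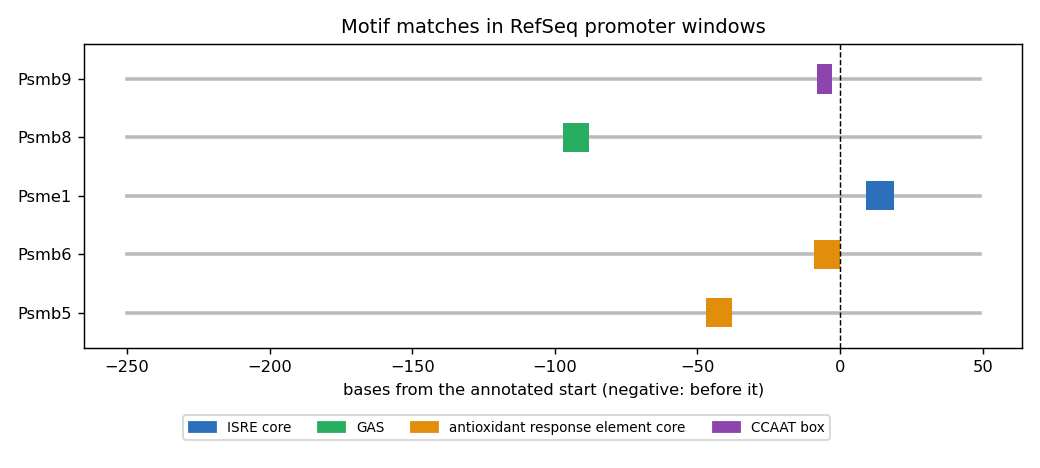
Positions of motif matches (coloured blocks) are shown along the 300-base promoter windows of 5 genes, with the annotated start at 0 (dashed line) and distance in bases on the horizontal axis. Psmb6 and Psmb5 each hold an antioxidant response element core, Psmb8 a GAS match, Psme1 an ISRE core and Psmb9 a CCAAT box. Psmb10 and Psme2, whose windows held no match, are not drawn.

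Psmb9 shares its window with Tap1, a chain of the peptide transporter of class I loading, which is read in the opposite direction: the 2 windows have 275 bases in common, at chr17:34187306-34187580. Tap1 had 7.20, 6.84 and 6.67 in MR-positive cells, against 7.16, 7.43 and 7.13 in MR-negative cells. The populations overlapped through M1, where the MR-positive array was higher by 0.04. The difference of -0.33 ± 0.17 did not pass (adjusted p = 0.260).

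Of the structural parts of the 20S core, none passed. By limma, 0 of the 4 measured non-catalytic beta genes and 0 of the 5 measured alpha genes passed, and at an unadjusted p under 0.05 there were 2 lower beta genes and 1 higher alpha gene. All 4 beta genes lay below 0, from -0.33 to -0.03. Psmb2 had 11.34, 11.15 and 11.17 in MR-positive cells, against 11.70, 11.45 and 11.49 in MR-negative cells, and Psmb3 had 10.71, 10.97 and 10.81 in MR-positive cells, against 10.99, 11.18 and 11.28 in MR-negative cells. Neither gene's populations overlapped, but their differences of -0.33 ± 0.13 (adjusted p = 0.144) and -0.32 ± 0.13 (adjusted p = 0.173) did not pass. Psmb2 passed with the block (adjusted p = 0.0474). Psmb1 differed by -0.24 ± 0.12 and Psmb4 by -0.03 ± 0.12.

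The alpha ring gates the entry to the core. Psma5 had 11.28, 11.43 and 11.24 in MR-positive cells, against 11.58, 11.49 and 11.51 in MR-negative cells, a difference of -0.21 ± 0.12 without overlap (adjusted p = 0.307). Psma7 differed by -0.21 ± 0.16, Psma2 by -0.04 ± 0.11 and Psma4 by -0.02 ± 0.11, with overlapping arrays. Psma8 encodes the alpha subunit of the testis proteasome. Its probe was dim, at 4.90, 4.84 and 5.30 in MR-positive cells, against 4.43, 4.63 and 4.68 in MR-negative cells. The difference of 0.43 ± 0.16 did not pass (adjusted p = 0.124) but did so with the block (adjusted p = 0.0318). The ring's Psma1, Psma3 and Psma6 could not be measured: the 1 probe each has on the array was detected on 0 arrays, at raw intensities of 18.9 to 25.7, although every 20S core is built with these subunits. Psmd3 of the 19S cap and the assembly chaperone gene Psmg4 were not measured either, for the same reason. Near the detection limit, Psma8 (raw intensities 33.8 to 45.1) and Psmc6 (32.6 to 45.3) were each detected on 5 arrays and counted as members, and Psmb11 (28.9 to 36.2), on 2, was not.

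Building of the core is helped by chaperones that pair alpha subunits. Psmg1, of the heterodimer it forms with the Psmg2 product, had 6.97, 7.11 and 7.14 in MR-positive cells, against 7.44, 7.57 and 7.63 in MR-negative cells. The 3 within-number differences were nearly alike, at -0.48, -0.46 and -0.49, and the difference was -0.48 ± 0.12 (adjusted p = 0.0400). Without any 1 array other than the MR-negative array of M1 it did not pass (adjusted p = 0.0997, 0.110 and 0.0966 without the MR-positive arrays of M1, M2 and M3, and 0.115 and 0.151 without the MR-negative arrays of M2 and M3). Its partner Psmg2 had 7.33, 7.63 and 7.81 in MR-positive cells, against 7.73, 7.38 and 7.40 in MR-negative cells (0.09 ± 0.17, adjusted p = 0.799). On this probe M1 ran opposite to the other numbers. The next brightest Psmg2 probe lay below 0 in every number, at -0.15 ± 0.11 without overlap (adjusted p = 0.472). A dimmer one differed by -0.10 ± 0.16 (adjusted p = 0.751), so the sign for Psmg2 depended on the probe. Psmg3 differed by -0.01 ± 0.15.

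The 19S cap unfolds substrates and feeds them to the core, and its genes differed little. Of the 6 ATPase genes of its base ring, Psmc1 to Psmc6, 0 passed by limma and 0 had an unadjusted p under 0.05. Their differences lay between -0.12 (Psmc4, adjusted p = 0.547) and 0.04 (Psmc1, adjusted p = 0.908). Psmc4 had 10.09, 10.20 and 10.23 in MR-positive cells, against 10.26, 10.28 and 10.35 in MR-negative cells, and Psmc3 had 8.63, 8.89 and 8.83 in MR-positive cells, against 8.83, 8.89 and 8.97 in MR-negative cells. Psmc4 was the ATPase gene whose populations did not overlap. Within title numbers, all 6 were lower in the MR-positive array of M1, by 0.15 to 0.20 in log2 (median -0.17). In M2, 5 of 6 were not lower (median 0.13, from -0.08 to 0.39), and in M3 5 of 6 were lower (median -0.09). Of all 43 members, 67.4% were lower in M1, 37.2% in M2 and 55.8% in M3. Of all genes, 47.0%, 46.0% and 49.4% were.

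The non-ATPase subunits form the lid of the cap and, with Psmd1 and Psmd2, part of its base, and include ubiquitin receptors and the deubiquitinase Psmd14. Of 10 measured, 0 passed by limma, and 1 was higher at an unadjusted p under 0.05. That gene was Psmd8, a lid subunit, with 11.26, 11.44 and 11.51 in MR-positive cells, against 11.02, 11.01 and 11.01 in MR-negative cells. The MR-negative arrays were nearly equal (SD 0.01) and all MR-positive ones lay above them. The difference of 0.39 ± 0.12 did not pass (adjusted p = 0.0707). It passed in 5 of 15 alternatives: with the block (0.0330), without a filter on dim probes, with a background offset of 50, in the authors' normalized table and without both M1 arrays. It did not pass with equal medians (0.137) or with the mean of its probes (0.28, adjusted p = 0.130). Its dimmer probe differed by 0.17 ± 0.15 with overlapping arrays (adjusted p = 0.523). Psmd12 had 9.39, 9.48 and 9.37 in MR-positive cells, against 9.41, 9.04 and 9.16 in MR-negative cells, and overlapped through M1 (0.21 ± 0.14, adjusted p = 0.378). The lowest of the class was Psmd4, a ubiquitin receptor, at -0.22 ± 0.14 (adjusted p = 0.393), and Psmd14 differed by -0.12 ± 0.16. As with the ATPase genes, M2 stood apart from M1: 9 of the 10 genes were higher in the MR-positive array in M2, and 5 of 10 in M1. Over all genes, 46.0% were lower in M2 and 47.0% in M1.

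The chaperones of the 19S base, Psmd5, Psmd9 and Psmd10, leave the finished cap. None of the 3 passed by limma, 1 had an unadjusted p under 0.05, and in all 3 the MR-positive arrays lay above the MR-negative ones, as they did for 18.9% of all genes. Psmd9 had 5.85, 5.86 and 6.14 in MR-positive cells, against 5.36, 5.55 and 5.54 in MR-negative cells, a difference of 0.47 ± 0.13 (adjusted p = 0.0602, and 0.0178 with the block). Its dimmer probe did not follow, at -0.05 ± 0.16. Psmd10, also known as gankyrin, had 9.35, 9.46 and 9.22 in MR-positive cells, against 9.08, 9.16 and 9.001 in MR-negative cells (0.26 ± 0.12, adjusted p = 0.214), and Psmd5 differed by 0.17 ± 0.12. Psmc3ip and Psme3ip1 match the symbol rule without being proteasome parts. They differed by -0.23 ± 0.35 and -0.08 ± 0.14 and did not pass.

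Over all members the differences were narrow. They ran from -0.67 to 0.52, with 0 of 43 at 1 or more in size, whereas 7.03% of all genes differed by at least 1 in log2. Below 0 were 24 members (55.8%, against 46.7% of all genes). The median difference was -0.02 (0.02 over all genes) and the median size of a difference was 0.17 (0.22 over all genes). The populations did not overlap for 18 members, 10 lower and 8 higher in MR-positive cells, which is 41.9%, against 34.6% of all genes (15.6% lower and 18.9% higher). With the title number as a block, 6 members were lower and 5 higher, where 13.6% of all genes were lower and 16.4% higher. The additions were Psme2 and Psmb2 on the lower side and Psmb5, Psma8, Psmd8 and Psmd9 on the higher. The sign of the difference was the same in M1, M2 and M3 for 25 of 43 members (58.1%, against 61.3% of all genes). In M1 29 members (67.4%) were lower in the MR-positive array, in M2 16 (37.2%) and in M3 24 (55.8%), against 47.0%, 46.0% and 49.4% of all genes.

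**Figure D5:**
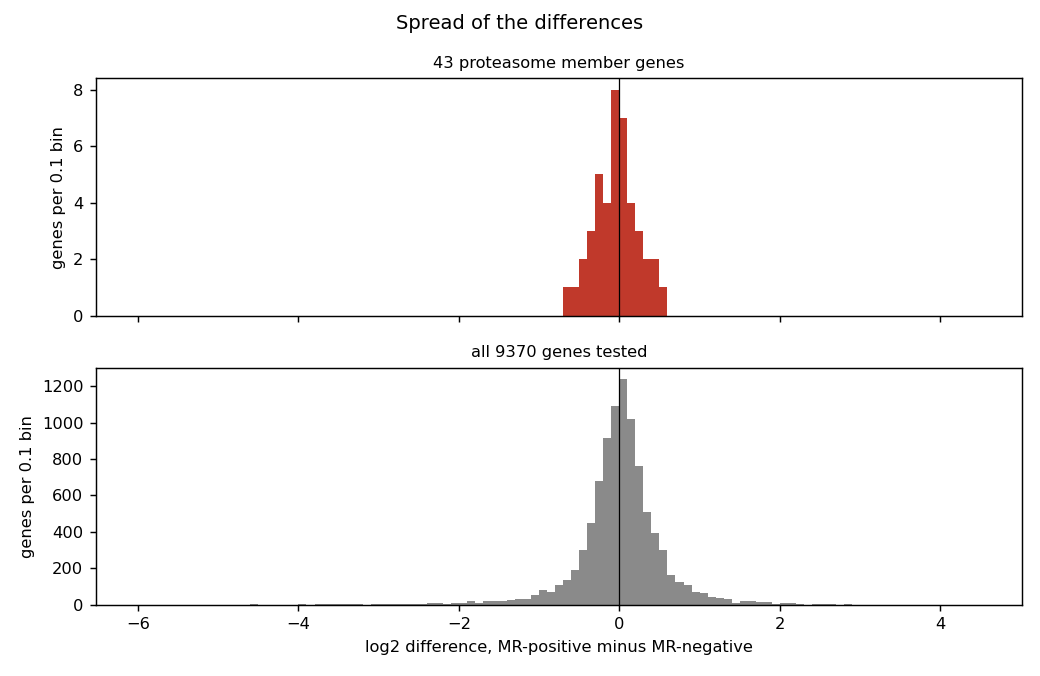
The number of genes (vertical axis) in bins of 0.1 of the log2 difference, MR-positive minus MR-negative (horizontal axis), is shown for the 43 member genes above and for all 9370 genes tested below. Member genes lie between -0.67 and 0.52, inside the much wider range of all genes.

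Genes that work beside the proteasome were read from lists. Among factors bound to it, such as the assembly factor Pomp (-0.19 ± 0.18, adjusted p = 0.562) and Sem1, a small subunit of the 19S lid (-0.18 ± 0.13, adjusted p = 0.453), 0 of 6 measured genes passed by limma, and 0 had an unadjusted p under 0.05. For ubiquitin and shuttle factors the counts were likewise 0 of 6 and 0, with Ufd1, a cofactor of the segregase VCP, at 0.33 ± 0.23 (adjusted p = 0.421) and the shuttle gene Rad23b at -0.16 ± 0.13 (adjusted p = 0.486). Of cytosolic and endoplasmic peptidases that trim proteasome products, 0 of 5 passed and 0 had an unadjusted p under 0.05, with Tpp2 at -0.21 ± 0.13 and Blmh at -0.14 ± 0.12. Of the 3 measured genes around NRF1, 0 passed and 1 was higher at an unadjusted p under 0.05, Nfe2l1 itself (0.36 ± 0.13, adjusted p = 0.121), and Nfe2l2 differed by 0.19 ± 0.21 (adjusted p = 0.639). Of 11 regulators in the interferon and class I list, 2 were lower and 0 higher (18.2% called, against 15.3% of all genes). At an unadjusted p under 0.05 there were 2 lower and 3 higher, the higher ones being B2m (0.46 ± 0.15), Tapbp (0.59 ± 0.24) and Ifngr2 (0.36 ± 0.15), and the median of the list was 0.12. Jak2, a kinase of the interferon gamma receptor, had 9.30, 9.36 and 9.48 in MR-positive cells, against 10.496, 11.003 and 10.77 in MR-negative cells (-1.37 ± 0.16, adjusted p = 0.0017). Irf8, an interferon regulatory factor of dendritic cells and monocytes, fell by 1.43 ± 0.16 (adjusted p = 0.0017). Irf1, the factor that carries the interferon signal to Psmb9, differed by 0.04 ± 0.25 (adjusted p = 0.939), and Nlrc5, the transactivator of class I genes, by 0.41 ± 0.18 (adjusted p = 0.194).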

How the data were processed

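Per the file headers, the authors deposited for each of 45281 probes and each of 6 arrays an intensity on a linear scale, and beside it a p-value, read here as the probe's detection p. These values carry no background subtraction or scaling between arrays. A further table that the authors deposited holds quantile normalized intensity. The upstream software is not given in the sources used here. Each array detected 35.3% to 36.8% of its probes, and the number of arrays limits the precision.

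The intensities were background corrected from the detection p, quantile normalized and put on the log2 scale with an offset of 16 by neqc of limma 3.58.1 (R 4.3.3). Probes with a detection p under 0.05 on at least 3 arrays, 16686 in all, entered lmFit and eBayes with the population as the sole term, two-sided, with Benjamini-Hochberg adjustment over all of them. The fit was tested on simulated data. The probe annotation gave 34885 probes a single gene symbol, 18 several, and 10378 were not listed. The brightest tested probe stood for each gene, and 21 of the 43 proteasome genes had more than 1. Named in full are the catalytic and PA28 genes, in each other class up to 4 members that passed with the largest differences, or, if none did, the 2 of smallest p, and likewise in each list. Other members were chosen after their values were seen. The members and lists were chosen with earlier results of these data known.

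Deviations from the population mean correlated across probes between same-numbered arrays (0.71 in M1, 0.57 in M2, 0.28 in M3). Both other pairs of M2 and M3 arrays exceeded the M3 value, at 0.38 (MR-positive M2 with MR-negative M3) and 0.29 (MR-positive M3 with MR-negative M2), so M2 and M3 are not told apart by this check. All same-numbered pairs were over 0.1, but so were those other pairs, so the check does not establish that the title numbers pair arrays. The numbers were taken as pairs in a fit with the number as a block, which was an alternative. Other alternatives changed the background offset, the normalization, the filter, the probe rule or the arrays used. Promoter windows came from RefSeq for GRCm38.p6, and 36 of the 43 genes had one.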

Additional observations from a re-analysis of the deposited data

How the results depend on the processing

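Psmb9, Psmb8, Psme1 and Psmg1 were lower and Psmb6 higher in MR-positive cells in all 15 alternatives, but each passed the threshold in only some: Psme1 in 11, Psmb9, Psmb6 and Psmg1 in 10 and Psmb8 in 7. Outside the left-out arrays, Psmb9 failed without a filter on dim probes (adjusted p = 0.0729), Psmb8 with cyclic loess (0.0608) and without both M1 arrays (0.0740), and Psmb6 with equal medians (0.103). Leaving out 1 array gave 0 to 1 higher and 0 to 3 lower members, and 1151 to 2544 probes called in all, against 2298. No member passed without the MR-positive array of M3 or the MR-negative array of M2 or M3, and Psme1 alone passed when the MR-positive array of M2 was left out. In each of these cases fewer samples entered the fit, so that a lost call need not be a smaller difference.

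With the title number as a replicate block, 4628 probes passed, and 5 members were higher and 6 lower. It ended no call among the members. The count of higher members was 2 with normexp at offset 50, with the authors' quantile normalized table, without a filter and without both M1 arrays, and 0 with equal medians, where Psmb6 differed by 0.37. Equal medians moved the median of all tested probes to -0.09, against 0.02, so differences there are read against that shift.

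Signs turned for genes close to 0 that did not pass under any alternative: Psmb10 (-0.060 with equal medians, -0.023 without the MR-negative array of M1, -0.023 to 0.128 over single left-out arrays), Psme4 (-0.072 with equal medians, -0.052 without both M1 arrays, -0.082 to 0.163 over single left-out arrays, lowest without the MR-negative array of M1) and Psme3 (-0.13 with equal medians, -0.011 with cyclic loess, -0.017 without both M1 arrays, -0.020 to 0.038 over single left-out arrays, below 0 without the MR-positive array of M1 or M2 or the MR-negative array of M1). The cause was not tested. Of the 314 values of 21 named genes under the alternatives, 261 kept direction and side of the threshold. Psma8 and Psmc6 lay near the detection limit, each undetected on 1 array.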
